A study of Mus musculus with 4 samples.

Results

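Lgr receptors and R-spondins were followed across the cell types of the mouse cortex, with the ubiquitin ligases that act with them. The set is 8 of the 33696 genes in the deposited count tables: the ligands Rspo1, Rspo2 and Rspo3, the receptors Lgr4, Lgr5 and Lgr6, and the ligases Znrf3 and Rnf43. They were picked by name with earlier results of these data in view, above all the lower level of Lgr5 in L5 ET neurons and of Lgr6 in astrocytes of pregnant mice. Values of any of the 8 genes in those 2 cell types are therefore given as a description, without a test. The tests in the other cell types come from the same 4 libraries.

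R-spondins are secreted proteins that amplify Wnt signals. They bind Lgr4, Lgr5 or Lgr6 on a receiving cell together with Znrf3 or Rnf43, which are membrane ubiquitin ligases that otherwise mark the Frizzled receptors of Wnt for removal, so that more Frizzled stays at the surface. Lgr5, Znrf3, Rnf43 and Axin2 are themselves known Wnt target genes in epithelia. In published taxonomies of mouse cortex, Lgr5 names a type of L5 extratelencephalic neuron and Rspo1 names a type of L4 neuron.

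Nuclei came from microdissected cortex of wild-type C57BL/6JRj females of about 12 weeks. The non-pregnant control group and the pregnant group, taken at E13.5 (days of embryonic development) after timed mating, each had 2 biological replicates. The sources used here do not say whether a library came from 1 mouse or from several, and they name no transgene or drug. Nuclei of both groups were isolated in buffers with the transcription inhibitor actinomycin D, and 3′ libraries were made with the 10x GEM-X v4 kit. The sources used here do not name the dissected cortical area, so a difference in area between the groups and an effect of pregnancy cannot be told apart.

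The libraries held 26816 barcodes and 423916014 UMIs (unique molecular identifiers, which count captured RNA molecules), and 25033 nuclei were kept, 5949 to 6503 per library, with a median of 12978 to 17498 UMIs. Only 109 barcode sequences occurred in more than 1 library. Of the named cell types, 16 reached 50 nuclei or more in each library, and orders of levels are among these 16 unless said otherwise. Excitatory types are named for their layer and target: IT for intratelencephalic, ET for extratelencephalic, NP for near-projecting and CT for corticothalamic. Clusters were named from marker lists, so the levels of these markers describe the names and do not test them. All markers were higher than in the rest of the class in every library for L5 ET (9 of 9), L5/6 NP (7 of 7) and L6 IT neurons (6 of 6). The same held for astrocytes (13 of 13), oligodendrocytes (10 of 10) and oligodendrocyte precursors (7 of 7). In L2/3 IT neurons it held for 6 of 7, without Pou3f2, and in L4/5 IT neurons for 5 of 6, without Il1rapl2. Excitatory clusters that were nearly limited to 1 group held 79, 0, 876 and 764 nuclei and were kept out of the named types, as were clusters without a name (112, 77, 165 and 503 nuclei, with medians of 1243 to 3297.5 UMIs). The largest of the limited clusters, with 65, 0, 493 and 334 nuclei, came closest to the L2/3 IT markers. The others came closest to those of L4/5 IT, L5 IT, L5/6 NP or L6 CT neurons. Lists of 4 values give the non-pregnant replicates 1 and 2 first and then the pregnant replicates 1 and 2. Levels are CPM, counts scaled to 1e6 UMIs of the same cell type and library. CPM is not scaled to transcript length, so levels are compared between cell types or groups for 1 gene at a time. Tests are edgeR's quasi-likelihood test on summed UMIs, with p adjusted over all genes tested in the cell type, and a gene rose or fell only where the adjusted p was below 0.05.

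The 3 ligands had their highest levels in neurons, each in a different type. Rspo1 was highest in a cluster with markers of both L2/3 IT and L4/5 IT neurons, at 40.1, 41.2, 37.3 and 43.4 CPM. The L4/5 IT neurons, the main target layer of thalamic input, followed with 32.1, 29.6, 29.5 and 31.5 CPM. Among the 16 types, the ranges of these 2 did not overlap with each other or with that of any other, and the next, Vip interneurons, had a mean of 9.30 ± 3.08 CPM (SD, n = 4). Nuclei with Car3 or claustrum markers, too few to be tested (15, 21, 3 and 1), had 9, 6, 2 and 1 Rspo1 UMIs, or 33.0, 12.7, 30.0 and 57.8 CPM, which overlaps both ranges. Within L4/5 IT neurons Rspo1 was uneven. A finer cluster of 1349 nuclei had 59.0, 50.8, 49.5 and 47.3 CPM, and another of 705 nuclei had 7.24, 7.72, 6.60 and 6.94 CPM.

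Rspo2 had its highest level in L6 IT neurons, at 75.9, 84.3, 89.8 and 83.1 CPM, above every other type in every library. L5 IT neurons came next, at 32.9, 24.3, 47.8 and 32.0 CPM, and their range overlapped those of Vip, Pvalb, L6 CT and L5 ET neurons. Rspo2 was close to absent from L4/5 IT neurons, at 1.13 to 2.15 CPM. No astrocyte of any library had an Rspo2 UMI, which allows a share of up to 2.33%, 2.07%, 1.23% and 1.36% of astrocytes with a UMI at medians of 5700 to 8288 UMIs. It sets no limit on expression.

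Rspo3 was spread over all excitatory layers. Its levels were 74.8, 71.4, 118 and 115 CPM in L2/3 IT neurons, and the means of the other IT types, of L5 ET and of L6 CT neurons lay between 52.4 and 78.8 CPM with overlapping ranges. L5/6 NP neurons were the exception among excitatory types, with 12.3, 2.95, 24.7 and 28.8 CPM. Interneurons had means of 10.6 to 21.6 CPM, and astrocytes had 25.5, 35.1, 30.6 and 19.0 CPM. In oligodendrocytes, which had a median of 3242.5 to 4228.5 UMIs, 1.23% to 1.97% of nuclei had an Rspo3 UMI, against 54.2% to 67.5% of L2/3 IT nuclei, which had a median of 15685 to 21440 UMIs.

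**Figure D1:**
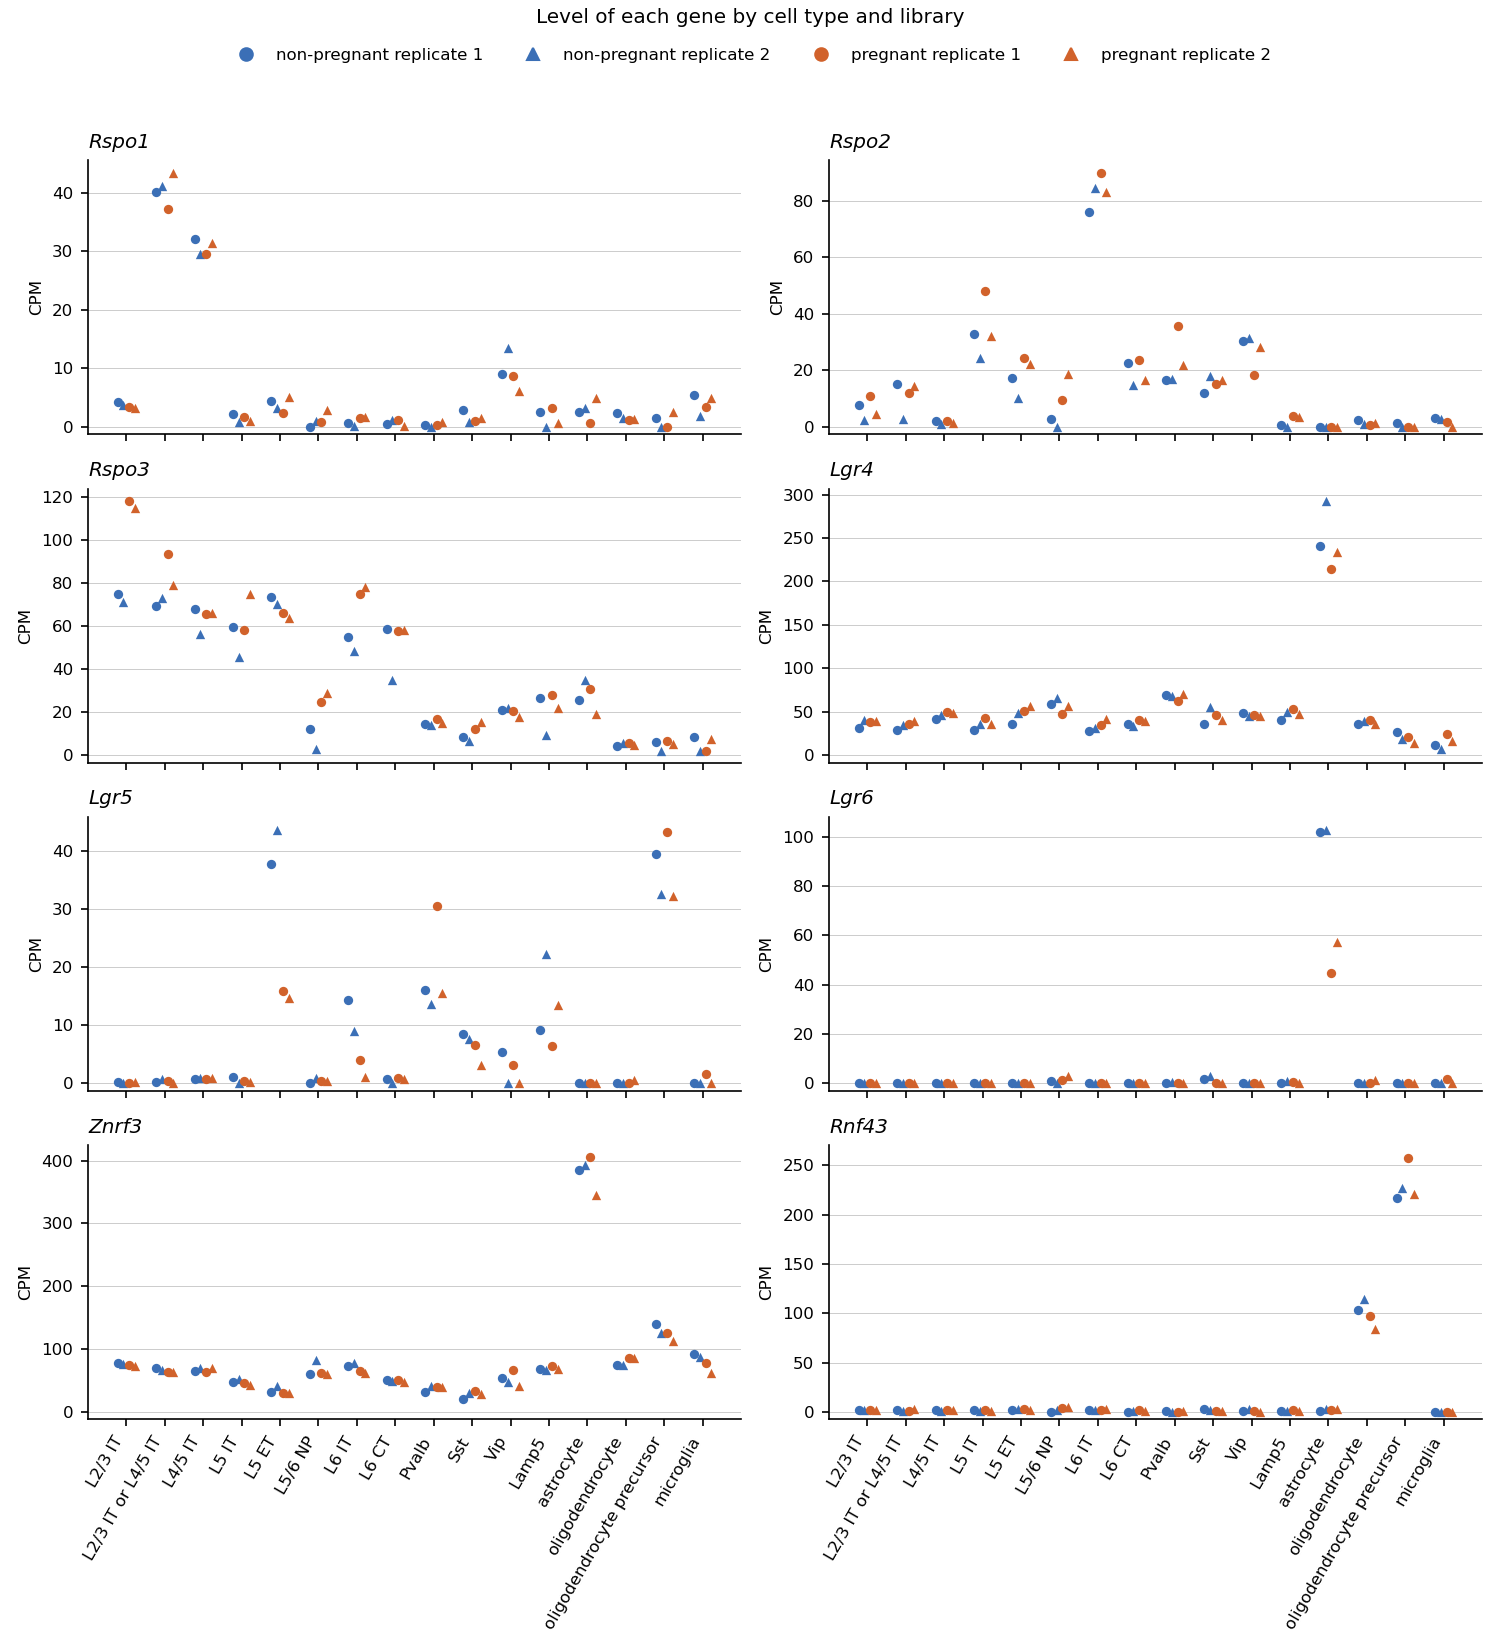
Level of each of the 8 genes (CPM, linear axis, own scale per gene) in the 16 cell types, with 1 point per library. Rspo1, Rspo2 and Rspo3 peak in different neurons, Lgr4, Lgr6 and Znrf3 in astrocytes and Rnf43 in oligodendrocyte precursors, and Lgr5 is found in L5 ET and L6 IT neurons, oligodendrocyte precursors and some interneurons.

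Outside L5 ET neurons and astrocytes, 64 of the 112 pairs of a gene and a cell type had enough counts to be tested between the groups. Adjusted p was below 0.05 in 4 of them (edgeR), and unadjusted p was below 0.05 in 13. Over all genes and the same 14 types, 0.698% of 168430 pairs were called, from 0.00971% of genes in Vip interneurons to 5.73% in L5/6 NP neurons. Unadjusted p was below 0.05 for 524 of 10298 genes in Vip interneurons, the lowest share of these types. The highest share was 1563 of 10543 genes, in L5/6 NP neurons. The median log2 fold change over the 64 pairs was 0.08. The 4 pairs were Rspo2 and Rspo3 in L5/6 NP neurons and Rspo3 in L6 IT neurons, which rose, and Lgr5 in L6 IT neurons, which fell. Of these, Rspo2 in L5/6 NP neurons entered the test only through the pregnant libraries, where it was high. Lgr6 had too few counts for a test in any of the 14 types, Rspo1 was tested in 4, Rnf43 in 5, Lgr5 in 6, Rspo2 in 10, Rspo3 in 11, and Lgr4 and Znrf3 in all 14.

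**Figure D2:**
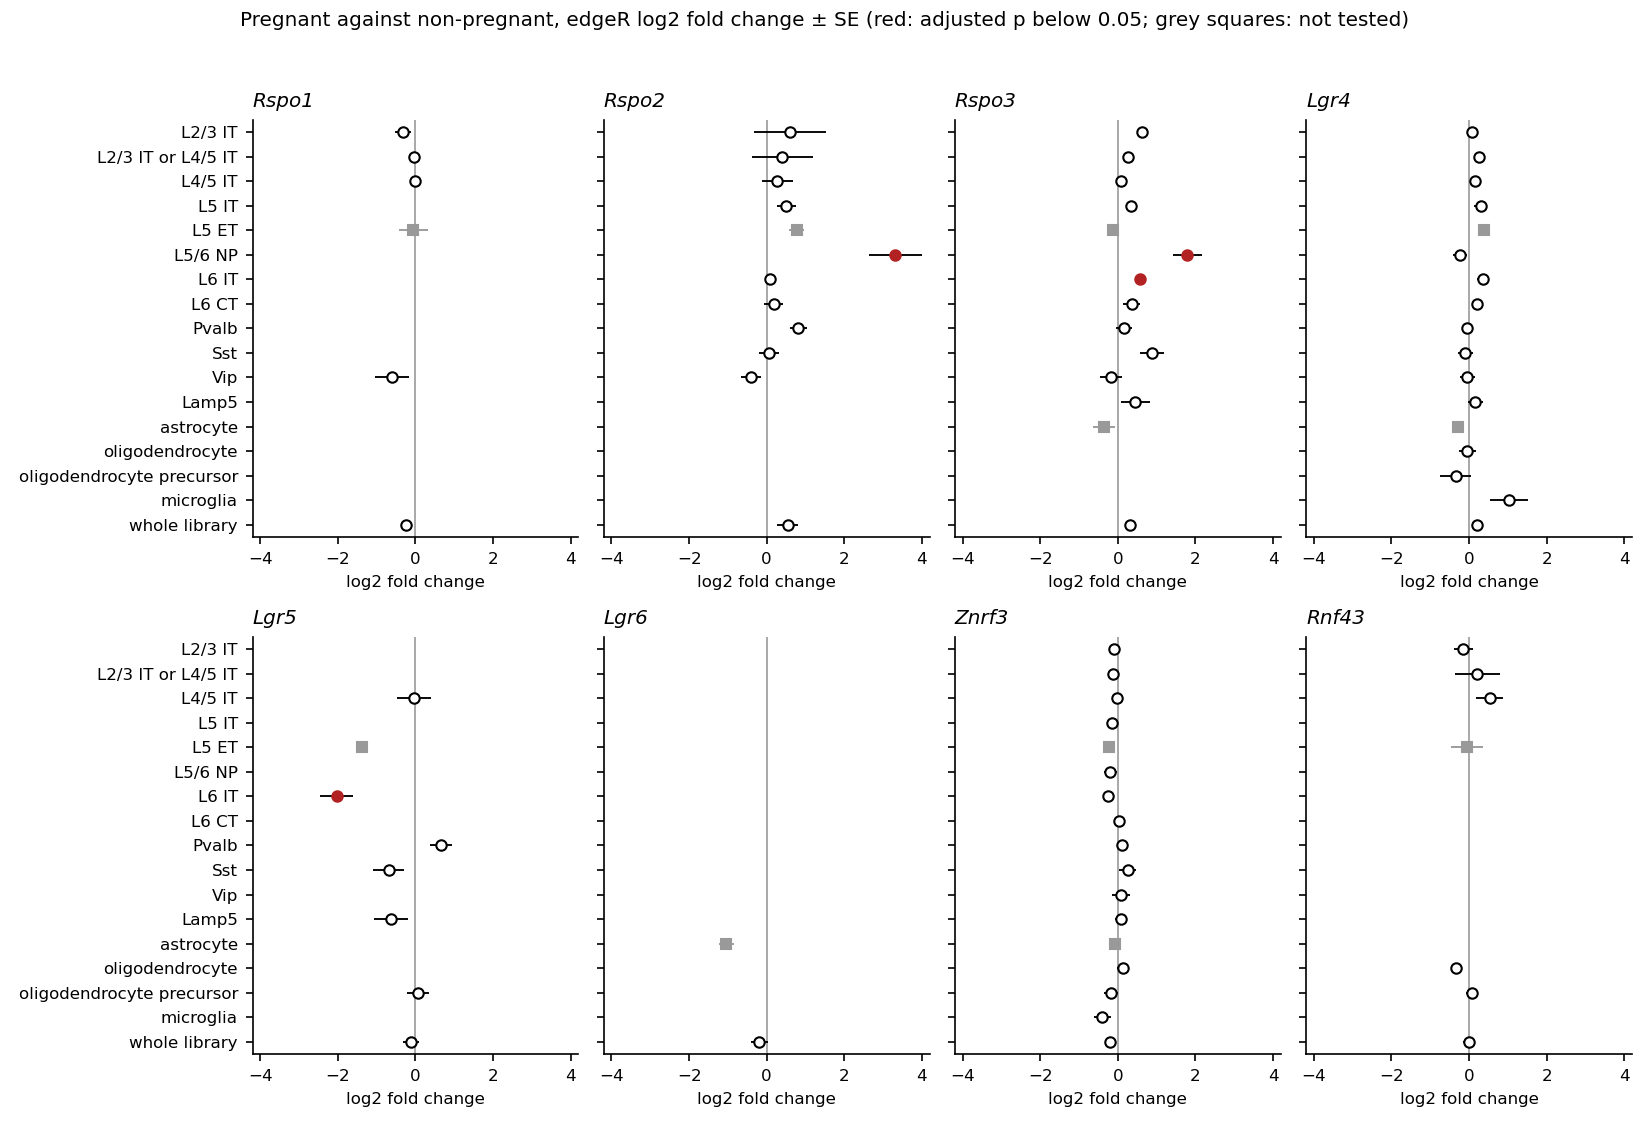
Log2 fold change with its SE (edgeR), positive where pregnant libraries were higher, for each gene in each cell type and in the whole library; red points passed the adjusted threshold and grey squares were not tested. Most tested pairs lie near 0, and the pairs furthest from it are Rspo2 in L5/6 NP neurons at 3.32 and Lgr5 in L6 IT neurons at -2.03. Rspo2 in L5/6 NP neurons had enough counts for the test only in the pregnant libraries.

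Among the ligands, Rspo3 reached a mean of 5 CPM in 14 of the 16 types. It was higher in both pregnant libraries than in both non-pregnant ones in 6 of these 14 and lower in 2. Over all pairs of a type and a gene of at least 5 CPM there, the groups lay apart in this way in 20.3% (pregnant higher) and 17.6% (pregnant lower), and by type in 16.4% to 29.7% and 10.1% to 26%. In L6 IT neurons Rspo3 had 54.8, 48.3, 74.9 and 78.1 CPM, or 51.5 ± 4.61 and 76.5 ± 2.28 (SD, n = 2 each). The groups did not overlap, and Rspo3 rose by 0.56 on the log2 scale (SE 0.12, edgeR adjusted p = 0.0334), in a cell type where 0.636% of 12581 genes were called. DESeq2 gave an adjusted p of 0.388, and edgeR gave 0.0743 without non-pregnant replicate 2, 0.249 without pregnant replicate 1 and 0.101 without pregnant replicate 2. It also gave 0.0557 without the doublet filter and 0.138 with equal numbers of nuclei per finer cluster. Beside it, Tshz2, an area and layer marker, had 0.59, 0.62, 14.3 and 11.1 CPM in these neurons, and the summed L6 IT markers had 1553, 1877, 2236 and 2378 CPM. Their part in the result was not tested.

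In L2/3 IT neurons the separation of the groups for Rspo3 was wider than their spread, at 73.1 ± 2.44 against 116 ± 2.41 CPM in the pregnant group (SD, n = 2 each). The log2 fold change was 0.62 (SE 0.08), with an unadjusted p of 6.0e-05 and an edgeR adjusted p of 0.0719, so it was not called. Only 0.0121% of 16511 genes were called in this type. DESeq2 gave an adjusted p of 3.6e-04. Over 12 alternative settings the log2 fold change lay between 0.57 and 0.68. Rspo3 stayed uncalled in 7 of these, among them clusters from a finer resolution and no doublet filter. The level was higher in both pregnant libraries in each of the 4 larger finer clusters of these neurons, for instance 75.2, 73.9, 144 and 128 CPM in the largest, of 1820 nuclei. With every nucleus thinned to 5000 UMIs, 28.5%, 27.6%, 35.3% and 36.8% of L2/3 IT nuclei had an Rspo3 UMI. L2/3 IT nuclei were 26.1%, 27.1%, 13.3% and 18.2% of the kept nuclei. These leave out the nearly limited cluster that came closest to L2/3 IT markers, so the comparison covers only part of such nuclei in the pregnant group. Tshz2 had 12.0, 2.13, 60.2 and 45.3 CPM in the same neurons, and 7 of 16 genes that vary between cortical areas were higher and 2 lower in both pregnant libraries, beside 29.7% and 10.1% of all genes of at least 5 CPM there. Their part was not tested. Here and below, the 16 area genes were counted at any level, while the shares beside them cover only genes of at least 5 CPM.

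No change of Rspo3 was called in L4/5 IT, L6 CT or Sst neurons. L4/5 IT neurons had 68.2, 56.4, 65.8 and 66.0 CPM and L6 CT neurons had 58.6, 35.1, 57.7 and 58.4 CPM, both with overlapping groups. L5 ET neurons, described without a test, had 73.5, 70.5, 66.3 and 63.9 CPM. Sst interneurons had 8.57, 6.45, 12.0 and 15.6 CPM, with a log2 fold change of 0.88 (SE 0.32, edgeR adjusted p = 0.506).

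L5/6 NP neurons were the type with the largest ligand differences and also the one with the most called genes, 5.73% of 10543 tested, with 4.31% that rose and 1.42% that fell. Rspo2 had 2.63, 0, 9.53 and 18.8 CPM there, from 3, 0, 22 and 45 UMIs. The nuclei that held these UMIs numbered 2 of 101, 0 of 67, 12 of 151 and 23 of 156, and a count of 0 in 67 nuclei allows a share of up to 4.48%. Rspo2 rose by 3.32 on the log2 scale (SE 0.68, edgeR adjusted p = 0.0014). It passed the filter on low counts (minimum count 10) only through the pregnant libraries, where it was high. Its p-value is therefore no separate support for the rise. As a ratio of summed UMIs per depth the rise was 10.3-fold, with a counting interval of 3.36 to 51.0. The adjusted p was 0.0675 with DESeq2, 0.245 without pregnant replicate 2 and 0.0513 without the doublet filter.

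Rspo3 in L5/6 NP neurons had 12.3, 2.95, 24.7 and 28.8 CPM, from 14, 3, 57 and 69 UMIs. It rose by 1.79 on the log2 scale (SE 0.37, edgeR adjusted p = 0.0014), or 3.40-fold in summed UMIs per depth with a counting interval of 2.04 to 6.03. The change was 1.17 (adjusted p = 0.0615) without non-pregnant replicate 2, 1.01 (0.139) without the doublet filter, 1.21 (0.184) with clusters from a finer resolution, 1.22 (0.140) with the 8 genes allowed in clustering and 1.35 (0.388) with equal numbers of nuclei per finer cluster. DESeq2 gave an adjusted p of 0.0761.

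The L5/6 NP nuclei consisted of 2 finer clusters. The smaller had 43 nuclei, 0 and 0 in non-pregnant and 18 and 25 in pregnant libraries. In it Slc17a8, a defining NP marker, had 0 and 3.5 CPM and Trhr had 0 in both, while summed oligodendrocyte markers had 2884 and 3062 CPM, against 67.5, 129, 54.2 and 193 CPM in the larger cluster. Rspo3 had 67.8 and 54.1 CPM in the smaller cluster and Rspo2 4.7 and 24.4 CPM. In the larger cluster alone, of 432 nuclei, Rspo3 had 12.3, 2.95, 14.9 and 20.9 CPM and Rspo2 2.63, 0, 10.6 and 17.0 CPM. Both ligands were also higher in both pregnant libraries of the larger cluster. Slc17a8 had 80.7, 100.2, 44.7 and 60.5 CPM and Trhr 105, 119, 74.5 and 78.6 CPM in that cluster. All 7 NP markers summed went the other way there, at 5045, 4960, 5817 and 5958 CPM. In the smaller cluster this sum was 603 and 443 CPM. Zfpm2, which varies between cortical areas, had 64.9, 56.0, 432 and 437 CPM in L5/6 NP neurons as a whole, where 5 of 16 area genes were higher and 5 lower in both pregnant libraries, beside 20.5% and 23.8% of all genes of at least 5 CPM. Tshz2, which is also an NP marker, was among the lower ones, at 3355, 3380, 3237 and 2930 CPM. Their part in these results was not tested.

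**Figure D3:**
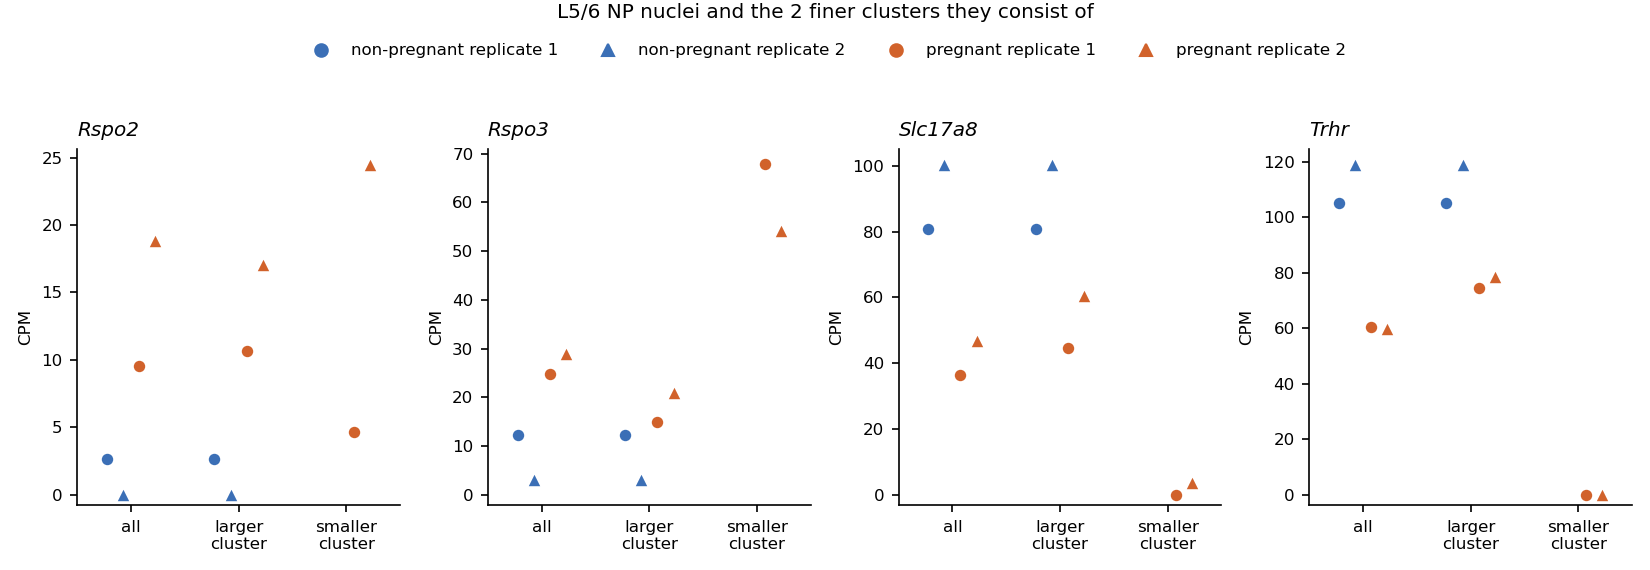
CPM (linear axes) of Rspo2, Rspo3 and the NP markers Slc17a8 and Trhr in L5/6 NP nuclei, for all of them and for the 2 finer clusters they consist of, with 1 point per library; the smaller cluster has points from pregnant libraries only. Rspo3 reaches 67.8 and 54.1 CPM in the smaller cluster and 14.9 and 20.9 CPM in the pregnant libraries of the larger.

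Rspo2 did not pass the test in its main layer. L6 IT neurons had a log2 fold change of 0.10 (SE 0.12, edgeR adjusted p = 0.895). In Pvalb interneurons, fast-spiking cells, Rspo2 had 16.4, 16.7, 35.7 and 22.0 CPM, with a log2 fold change of 0.82 (SE 0.21, edgeR adjusted p = 0.0958). Vip interneurons had 30.4, 31.4, 18.2 and 28.3 CPM, lower in both pregnant libraries, with a log2 fold change of -0.40 (SE 0.26, edgeR adjusted p = 0.972). L5 ET neurons, described without a test, had 17.1, 10.3, 24.3 and 22.1 CPM. Rspo1 in its 2 highest types had log2 fold changes of -0.03 (SE 0.12) in the L2/3 IT or L4/5 IT cluster and -0.01 (SE 0.10) in L4/5 IT neurons.

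Of the receptors, Lgr4 was found everywhere, and in astrocytes most. Astrocytes had 241, 293, 215 and 234 CPM, above every other type in every library. Pvalb interneurons followed with 62.5 to 70.6 CPM, and the lowest level of the 16 types was in microglia, with 11.8, 7.21, 23.8 and 16.1 CPM. In the remaining types the means lay between 20.2 and 57.1 CPM, and the ranges of neighbours in this order overlapped, except those of L6 IT neurons and oligodendrocyte precursors. The pregnant libraries were lower in astrocytes (log2 fold change -0.30, SE 0.13, no test) and higher in L5 ET neurons, at 36.4, 48.0, 51.3 and 56.6 CPM (0.39, SE 0.13, no test). In microglia the log2 fold change of Lgr4 was 1.03 (SE 0.48, unadjusted p 0.0398, edgeR adjusted p = 0.605), and in none of the 14 tested types was Lgr4 called.

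Lgr5 was restricted to a few types. Its means over 4 libraries were highest in oligodendrocyte precursors, at 39.5, 32.6, 43.3 and 32.3 CPM, and next in L5 ET, Pvalb, Lamp5, L6 IT and Sst neurons, with overlapping ranges between neighbours in this order. It was below 1 CPM in 9 of the 16 types and had no UMI in astrocytes. L5 ET neurons held 48.5%, 45.8%, 38.2% and 46.5% of all Lgr5 UMIs of a library.

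In L5 ET neurons, large neurons that send axons out of the telencephalon, Lgr5 had 37.8, 43.7, 16.0 and 14.7 CPM, from 206, 204, 184 and 144 UMIs. The means were 40.8 ± 4.17 and 15.4 ± 0.891 CPM (SD, n = 2 each), and the log2 fold change was -1.37 (SE 0.14), with a range of -1.59 to -1.24 over the alternative settings. The share with an Lgr5 UMI was 33.3% (68 of 204), 33.1% (41 of 124), 19.0% (58 of 305) and 17.4% (45 of 259), with Wilson 95% intervals of 27.2 to 40.1% for the highest and 13.2 to 22.5% for the lowest. The UMIs per positive nucleus were 3.03, 4.98, 3.17 and 3.20, not scaled to depth, where positive nuclei had medians of 22771.5, 32719, 35981.5 and 38140 UMIs. With nuclei thinned to 5000 UMIs the shares were 17.6%, 15.3%, 5.94% and 3.89%. For comparison, L6 CT nuclei had an Lgr5 UMI in 0.319%, 0.281%, 1.14% and 1.18%, at medians of 12606 to 18128.5 UMIs, while L5 ET nuclei had medians of 24498.5, 35277.5, 35743 and 33584. Intervals cover counting error only.

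The L5 ET neurons of the groups also differed in other genes. In this type, 2.66% of 13745 genes were called. Tshz2 had 61.3, 89.8, 360 and 503 CPM and Zfpm2 had 208, 206, 508 and 513 CPM, and 6 of 16 area genes were higher and 2 lower in both pregnant libraries, beside 21% and 26% of all genes of at least 5 CPM. The summed L5 ET markers had 692, 689, 806 and 783 CPM and the summed L5/6 NP markers 191, 262, 504 and 661 CPM. Their part in the Lgr5 values was not tested. L5 ET nuclei were also 3.14%, 2.08%, 4.90% and 4.08% of the kept nuclei.

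Outside that layer, Lgr5 fell in L6 IT neurons, where it had 14.4, 9.12, 4.01 and 1.11 CPM from 49, 44, 21 and 4 UMIs. The log2 fold change was -2.03 (SE 0.41, edgeR adjusted p = 0.0409), in a cell type where 0.183% of genes fell and 0.453% rose. In summed UMIs per depth the ratio was 0.251, with a counting interval of 0.154 to 0.393. Lgr5 UMIs were found in 23 of 217, 13 of 225, 13 of 266 and 2 of 200 nuclei, and 1 nucleus held 3 of the 4 UMIs of pregnant replicate 2. Without pregnant replicate 2 the change was -1.49 (adjusted p = 0.0575), and DESeq2 gave an adjusted p of 0.0690. In this type 5 of 16 area genes were higher and 2 lower in both pregnant libraries, beside 21.1% and 17.5% of all genes of at least 5 CPM.

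In the other types with Lgr5 no change was called. Oligodendrocyte precursors, where the groups overlapped, had a log2 fold change of 0.07 (SE 0.29). Pvalb interneurons had 16.2, 13.8, 30.6 and 15.6 CPM (0.67, SE 0.29, edgeR adjusted p = 0.532). Sst interneurons had 8.57, 7.59, 6.64 and 3.19 CPM (-0.69, SE 0.41, edgeR adjusted p = 0.829), and Lamp5 interneurons 9.27, 22.3, 6.37 and 13.6 CPM.

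**Figure D4:**
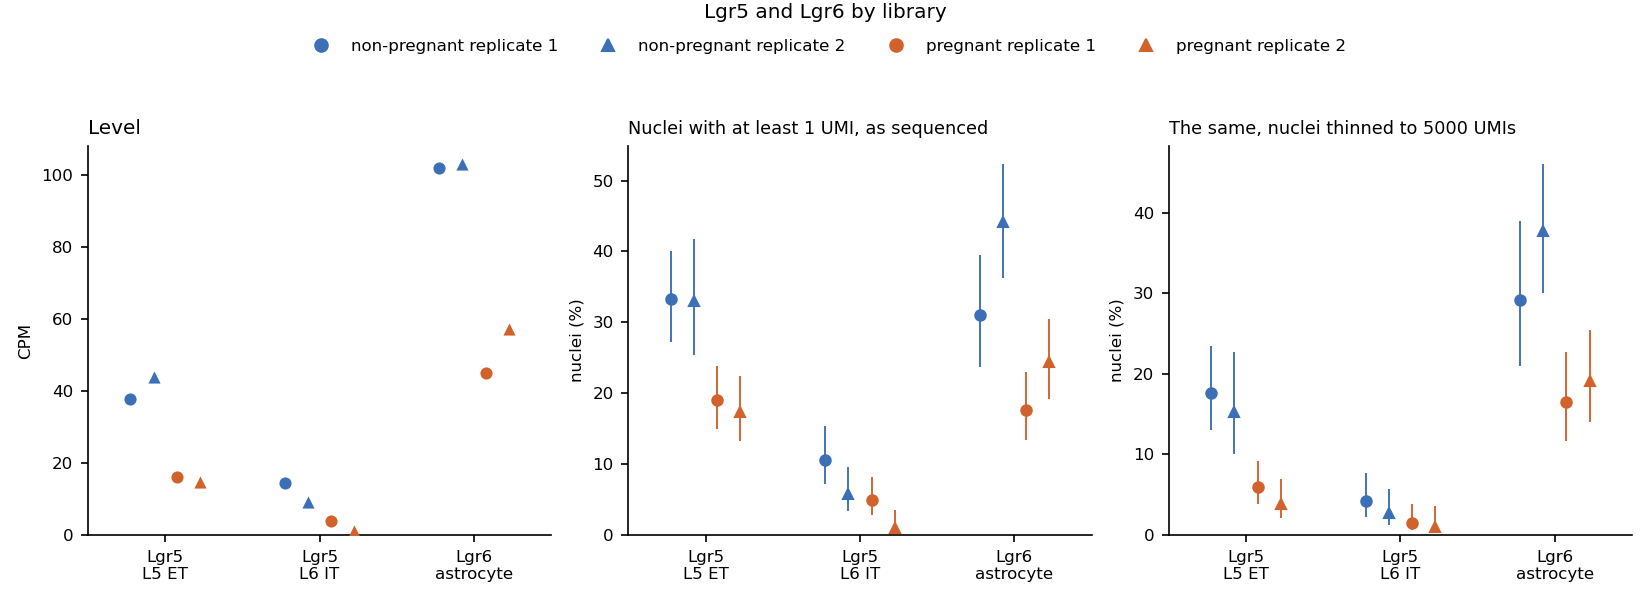
Lgr5 and Lgr6 by library: level (CPM), and share of nuclei (percent) with at least 1 UMI as sequenced and after thinning to 5000 UMIs per nucleus, with Wilson 95% intervals, in L5 ET neurons, L6 IT neurons and astrocytes. In L5 ET neurons non-pregnant libraries lie at 37.8 and 43.7 CPM of Lgr5 and pregnant ones at 16.0 and 14.7, and in astrocytes Lgr6 lies at 102 and 103 against 44.8 and 57.1 CPM.

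Lgr6 was mainly an astrocyte transcript. Astrocytes had 102, 103, 44.8 and 57.1 CPM, from 80, 129, 66 and 81 UMIs, and held 86.0%, 85.4%, 70.2% and 71.1% of the Lgr6 UMIs of a library. In 13 of the 16 types the mean was below 1 CPM. Summed over all excitatory neurons, Lgr6 had a log2 fold change of 1.35 (SE 0.44, edgeR adjusted p = 0.212) and was not called. L5/6 NP neurons held 1.08%, 0%, 3.19% and 6.14% of its UMIs, and the clusters nearly limited to 1 group 0%, 0%, 10.6% and 3.51%. These are shares of only 93, 151, 94 and 114 UMIs. The group means in astrocytes were 102 ± 0.754 and 51.0 ± 8.71 CPM (SD, n = 2 each), and the log2 fold change was -1.04 (SE 0.19), with a range of -1.19 to -0.90 over the alternative settings. Both the share of astrocytes with an Lgr6 UMI and the UMIs per positive astrocyte were lower in both pregnant libraries. The shares were 31.0%, 44.1%, 17.7% and 24.4%, or 29.2%, 37.7%, 16.5% and 19.1% with nuclei thinned to 5000 UMIs, which left out 33, 7, 67 and 43 astrocytes. The UMIs per positive astrocyte were 2.00, 2.02, 1.53 and 1.50. Of the oligodendrocytes, 0 of 486, 0 of 456, 0 of 470 and 2 of 403 had an Lgr6 UMI, where a count of 0 allows up to 0.617%, 0.658% and 0.638%, at lower medians than the 5700, 8288, 5855 and 6039 UMIs of astrocytes.

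In astrocytes 0.598% of 10375 genes were called. The 13 summed astrocyte markers had 16087, 15692, 16035 and 15752 CPM, with overlapping groups. Hbb-bs, a haemoglobin gene of red blood cells, had 1.27, 3.19, 27.9 and 36.7 CPM in astrocytes and was higher in both pregnant libraries in all 16 types. Tshz2 had 2.55, 3.99, 17.0 and 19.0 CPM. Their part was not tested. Astrocytes were 1.98%, 2.44%, 3.90% and 3.48% of the kept nuclei.

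Of the ligases, Znrf3 was present in all 16 types and highest in astrocytes, at 386, 392, 405 and 345 CPM. Oligodendrocyte precursors had 139, 126, 125 and 112 CPM, and both lay above the other 14 of the 16 types in every library. Endothelial and mural nuclei, too few to be tested (27, 33, 75 and 53), had 233, 344, 194 and 248 CPM from 19, 56, 59 and 54 UMIs, above the precursors. Znrf3 was lower in both pregnant libraries in 7 of the 16 types and higher in 1, beside 17.6% and 20.3% of all pairs of a type and a gene of at least 5 CPM, and none of its 14 tests was called. The lowest log2 fold change was -0.40 (SE 0.21) in microglia, at 92.5, 87.4, 78.3 and 62.0 CPM, with an edgeR adjusted p of 0.705.

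Rnf43 was confined to the oligodendrocyte lineage among the types at 5 CPM or more. Oligodendrocyte precursors had 217, 227, 258 and 221 CPM and oligodendrocytes 103, 114, 97.3 and 84.2 CPM. The newly formed oligodendrocytes, too few to be tested, had 40.9, 29.5, 54.2 and 53.4 CPM from 29, 22, 18 and 21 nuclei, below both. The smaller L5/6 NP cluster, with its oligodendrocyte markers, had 14.0 and 15.7 CPM. No microglial nucleus had an Rnf43 UMI. In oligodendrocytes the log2 fold change was -0.33 (SE 0.15, unadjusted p 0.0412, edgeR adjusted p = 0.588), and in precursors it was 0.07 (SE 0.14).

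Summed over all kept nuclei of a library, none of the 8 genes was called with edgeR, where 1.14% of 20898 genes were called. An unadjusted p below 0.05 was found for 4 of the 8 and for 2652 of all 20898. Rspo3 had 59.2, 53.0, 70.6 and 70.5 CPM, with a log2 fold change of 0.32 (SE 0.08, edgeR adjusted p = 0.104). Lgr4 had 37.6, 45.2, 47.7 and 48.8 CPM (0.21, SE 0.09), Znrf3 67.4, 72.0, 61.4 and 60.1 CPM (-0.21, SE 0.07) and Rspo1 11.9, 11.0, 9.61 and 9.98 CPM (-0.24, SE 0.10). Lgr5 and Lgr6 had whole-library log2 fold changes of -0.11 (SE 0.21) and -0.19 (SE 0.21). The clusters nearly limited to 1 group held 19.1% and 13.7% of the Rspo3 UMIs of the pregnant libraries, against 0.53% and 0% of the non-pregnant ones.

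Ligand and receptor transcripts were counted in the same nuclei, without a test. Of L5 ET nuclei with an Lgr5 UMI, 69.1%, 82.9%, 81.0% and 75.6% also had an Rspo3 UMI, and of those without one, 74.3%, 72.3%, 71.3% and 73.8%. Rspo2 was found in 33.8%, 19.5%, 39.7% and 42.2% of the Lgr5-positive nuclei and in 22.8%, 14.5%, 37.2% and 29.4% of the others. The share with Rspo3 was higher beside Lgr5 in 3 of 4 libraries and that with Rspo2 in 4 of 4. In astrocytes, 65.0%, 89.1%, 79.1% and 68.5% of Lgr6-positive nuclei had an Lgr4 UMI, against 67.4%, 80.2%, 61.0% and 68.9% of the others, which were higher in 2 of 4 libraries. A Znrf3 UMI was found in 80.0%, 92.2%, 88.4% and 83.3% of Lgr6-positive nuclei and in 83.1%, 88.9%, 84.5% and 83.8% of the others, again higher in 2 of 4. Of oligodendrocyte precursors with Lgr5, 75.0%, 62.1%, 67.9% and 52.9% had an Rnf43 UMI, against 67.8%, 74.8%, 74.1% and 63.4% of those without Lgr5, which were higher in 3 of 4 libraries. These shares depend on depth, and the L5 ET nuclei with and without Lgr5 had medians of 22771.5 to 38140 UMIs.

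Across the 16 types, on log2(CPM + 1) averaged over the 4 libraries, Lgr4 and Lgr6 had a Pearson correlation of 0.80 and Lgr6 and Znrf3 of 0.72, with astrocytes the highest type for all of them. Rspo2 and Znrf3 had -0.69. Among 13107 other genes, those most like Lgr6 were Dmp1, Heph and Atl2 (0.99, 0.99 and 0.98), and most like Rnf43 were Zfp488, Mroh3 and Slpi (0.98 each), genes that also peak in oligodendrocyte precursors. For Rspo1 they were Scn7a, Prdm8 and Coch (0.82, 0.77 and 0.76), for Rspo2 Stac2, Eno2 and Tdrd5 (0.88, 0.83 and 0.83), and for Rspo3 Drc3, Tnks1bp1 and Tek (0.90 each). For Lgr4 they were Tulp3, Bbox1 and Acss2 (0.91, 0.89 and 0.89), and for Lgr5 Lama1, Cdca7l and Gmds (0.84, 0.83 and 0.79). Ccdc28b and Mfge8 were among those most like Znrf3 (0.91 each). The 16 points share the 4 libraries and differ in depth, so these correlations are descriptions. Lgr6 had a mean below 1 CPM in 13 of the 16 types, so its correlations rest largely on astrocytes. Dmp1 had only 6.36, 7.18, 2.04 and 7.76 CPM in astrocytes.

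The wider Wnt pathway was measured with 84 other genes in 8 lists by role. Outside L5 ET neurons and astrocytes 483 pairs of a gene and a cell type were tested, of 1176 possible, and 7 were called by edgeR, 4 that rose and 3 that fell, or 1.45%, beside the 0.698% over all genes. Of these 7, Apcdd1 in L5/6 NP neurons passed the filter on low counts only through the group where it was high. Unadjusted p was below 0.05 in 50 of the 483. Over all genes this held for 524 of 10298 in Vip interneurons (lowest share) and 1563 of 10543 in L5/6 NP neurons (highest). The median log2 fold change of the lists lay between -0.07 and 0.03 by type, and that of all genes between -0.01 and 0.01. The lists had called genes only for secretion, for inhibitors and for feedback targets.

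Wls, the carrier that takes Wnt proteins to the cell surface, rose in L5 IT and L6 IT neurons. L5 IT neurons had 61.5, 53.4, 109 and 97.6 CPM, or 57.5 ± 5.68 and 103 ± 8.24 (SD, n = 2 each), with a log2 fold change of 0.87 (SE 0.12, edgeR adjusted p = 8.8e-04), where 1.07% of 13211 genes were called. L6 IT neurons had 12.3, 13.3, 32.7 and 25.3 CPM (1.18, SE 0.20, edgeR adjusted p = 0.0070), but the adjusted p was 0.0612 with DESeq2 and 0.148 without pregnant replicate 1. In L5 IT neurons 6 of 16 area genes were higher and 1 lower in both pregnant libraries, beside 18.2% and 22.1% of all genes of at least 5 CPM. Their part was not tested. Wls was higher in both pregnant libraries in every other excitatory type except L5/6 NP neurons. In those other types, 19.2% to 29.7% of all genes of at least 5 CPM were higher in this way. Wls had its highest level in L5/6 NP neurons, at 277, 269, 236 and 227 CPM. Summed over excitatory neurons it had 46.0, 49.6, 78.0 and 73.6 CPM (0.66, SE 0.08, edgeR adjusted p = 0.0130), with 1.4% of 19186 genes called, and an adjusted p of 0.230 without pregnant replicate 1 and 0.117 without pregnant replicate 2. Over whole libraries it had 49.1, 53.8, 70.8 and 68.9 CPM (0.43, SE 0.08, edgeR adjusted p = 0.0355), with an adjusted p of 0.527 without pregnant replicate 1 and 0.180 without pregnant replicate 2. Interneurons and glia had overlapping groups except Lamp5 interneurons, at 34.5, 27.9, 27.4 and 25.4 CPM.

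**Figure D5:**
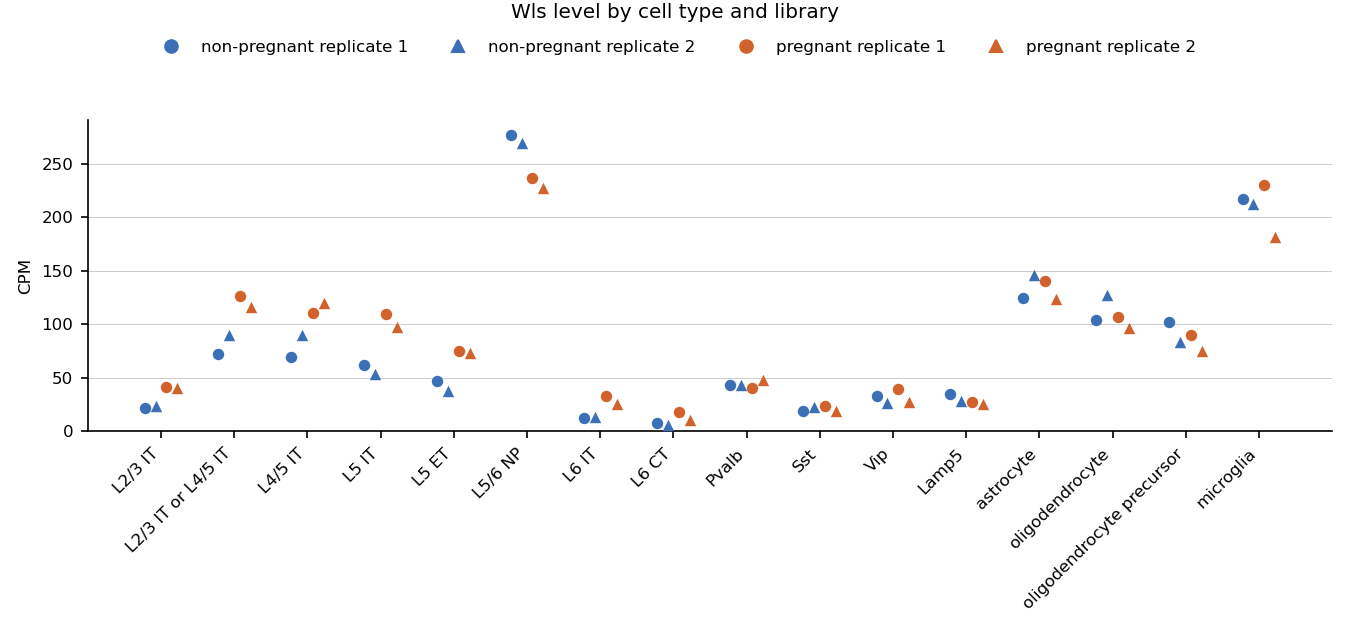
Level of Wls (CPM, axis from 0) in the 16 cell types, with 1 point per library. Pregnant libraries lie above non-pregnant ones in L5 IT neurons (109 and 97.6 against 61.5 and 53.4 CPM) and in the other excitatory types, except L5/6 NP neurons.

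The other called Wnt genes were all in L5/6 NP neurons. Dkk2, a secreted inhibitor that blocks the Lrp co-receptors of Wnt, had 150, 141, 73.2 and 46.4 CPM and fell by 1.25 on the log2 scale (SE 0.17, edgeR adjusted p = 1.7e-05). Kremen1, a receptor for Dkk proteins, had 142, 104, 85.3 and 57.3 CPM and fell by 0.77 (SE 0.19, adjusted p = 0.0131). Dkk3, a relative of Dkk2, had 36.0, 37.3, 59.4 and 70.2 CPM and rose by 0.85 (SE 0.20, adjusted p = 0.0040). Tnfrsf19, a receptor listed among feedback targets, had 8.77, 3.93, 17.3 and 17.1 CPM and rose by 1.43 (SE 0.41, adjusted p = 0.0269). Apcdd1, a membrane inhibitor named here after its values were seen, fell by 2.13 (SE 0.65, adjusted p = 0.0440) at 7.89, 7.86, 2.60 and 0.836 CPM. It passed the filter on low counts only through the non-pregnant libraries, where it was high, so its p-value is no separate support. With clusters from the finer resolution the adjusted p was 0.721 for Dkk3, 0.156 for Kremen1, 0.323 for Tnfrsf19 and 0.194 for Apcdd1. These 4 calls were also lost with DESeq2 (adjusted p of 0.192, 0.127, 0.483 and 0.506 in the same order), without the doublet filter (0.794, 0.262, 0.826 and 0.469) and with the 8 genes allowed in clustering (0.882, 0.203, 0.314 and 0.202). Each was lost without at least 1 replicate: Dkk3 without pregnant replicate 2, Kremen1 without non-pregnant replicate 1 or pregnant replicate 2, Tnfrsf19 without non-pregnant replicate 2 or either pregnant one, and Apcdd1 without either non-pregnant one. With equal numbers of nuclei per finer cluster Dkk2 had a log2 fold change of -0.73 (adjusted p = 0.0501), Kremen1 -0.31 (0.693), Dkk3 0.19 (0.931) and Tnfrsf19 1.29 (0.439). The smaller cluster of this type, found in pregnant libraries only, entered these values too.

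No Wnt ligand or Wnt receptor was called in any of the 14 types. The most abundant gene of each role by UMIs was Wnt9a among ligands, with its highest level in the L2/3 IT or L4/5 IT cluster (53.0, 38.4, 37.4 and 49.3 CPM), and Lrp6 among receptors, in microglia (163, 210, 232 and 179 CPM). Ndp, an agonist that is not a Wnt, had 53.4, 39.9, 39.4 and 50.8 CPM in astrocytes. Among inhibitors Dkk3 had 176, 165, 152 and 179 CPM in L6 CT neurons. Apc led the cytoplasmic transducers, with 719, 715, 712 and 659 CPM in Pvalb interneurons, and Bcl9 the nuclear effectors, with 153, 193, 148 and 182 CPM in microglia. Tnfrsf19 had 326, 359, 281 and 284 CPM in astrocytes, given without a test. Axin2, the Wnt target chosen after its values were seen, had log2 fold changes of -0.48 to 0.71 over the types where it was tested, and none was called.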

How the data were processed

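Per the file headers and labels, the authors deposited whole-number UMI counts per gene and nucleus for 4 libraries, made with Cell Ranger 10.0.0 on genome build GRCm39, per the submitters' processing notes. The counts are not normalised, and the sources used here do not say whether intronic reads were counted. Genes of the files were matched by symbol. No genome of that build was used here, so no coordinates are given.

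Nuclei with at least 500 genes and at most 5% mitochondrial UMIs were kept, and the 5% of each library most like simulated doublets were left out, so doublets were only partly removed. Free RNA was not subtracted. Nuclei were clustered in scanpy 1.11.5 (2000 variable genes without the 8 genes described, 40 principal components, 20 neighbours, resolution 1, and 2 as an alternative) and named from marker lists, with naming thresholds set after the clusters were seen and 1 listed Pvalb marker, Btbd11, absent by that symbol. A name means that a cluster resembles the type. UMIs were summed per library and type. Sums were tested with edgeR 4.0.16 (TMM, minimum count 10, Benjamini-Hochberg adjustment within each type), and DESeq2 1.42.0 was an alternative. The tests were tried on simulated counts first. Floors are 3 counts. The p-values measure only the spread between 2 replicate libraries per group, of an unstated number of mice. For each gene, edgeR draws this spread towards a trend over all genes tested, so the p-values also rest on other genes. An exact two-sided permutation test of 2 against 2 cannot go below 0.333.

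The 8 genes, the Wnt, marker and area lists and the tests were chosen with earlier results of these data known. All 8 genes are named. Of the Wnt lists, up to 2 genes that rose and 2 that fell per type are named, with the most abundant gene of each role. Likeness to a gene is Pearson's r of log2(CPM + 1) across types, among genes of at least 5 CPM in a type. Of the genes most like Znrf3, 1 is not reported here.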

Additional observations from a re-analysis of the deposited data

Results flagged for a closer look

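For 4 genes, the level was higher in both pregnant libraries than in both non-pregnant ones in at least 1 type and lower in another. Lgr4 and Rspo3 were each higher in 6 types and lower in 2. Rspo2 was higher in 3 and lower in 1, and Znrf3 higher in 1 and lower in 7. Among all pairs of a type and a gene of at least 5 CPM there, 20.3% were higher in this way and 17.6% lower. Only the pair of types furthest apart in log2 fold change is given for each gene. None of these differences between cell types was tested. Lgr4 was higher in microglia (11.8, 7.21, 23.8 and 16.1 CPM) and lower in astrocytes (241, 293, 215 and 234 CPM), and the log2 fold changes differed by 1.32. Rspo2 was higher in L5/6 NP neurons (2.63, 0, 9.53 and 18.8 CPM) and lower in Vip interneurons (30.4, 31.4, 18.2 and 28.3 CPM), with a difference of 3.71. Rspo3 was also higher in L5/6 NP neurons (12.3, 2.95, 24.7 and 28.8 CPM) and lower in Vip interneurons (20.9, 21.8, 20.6 and 17.5 CPM), with a difference of 1.96. Znrf3 was higher in oligodendrocytes (74.8, 75.0, 85.2 and 86.1 CPM) and lower in microglia (92.5, 87.4, 78.3 and 62.0 CPM), with a difference of 0.52.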

How the results depend on the processing

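Within the 14 tested types, the 4 called pairs became 1 with DESeq2 (0 in common), 1 without the doublet filter (1 in common), 2 with equal numbers of nuclei per finer cluster (1 in common), and 3 to 12 with 1 replicate left out, 12 of them without non-pregnant replicate 1. Over whole libraries, the count of 0 became 1 without a filter on low counts, 1 with a replicate block, and 0 to 3 with 1 replicate left out, with 3 without non-pregnant replicate 1 and 1 without non-pregnant replicate 2. For the other Wnt genes, 7 called pairs became 16 without the filter on low counts, 4 with DESeq2 and 4 to 23 with 1 replicate left out (23 and 13 without non-pregnant replicates 1 and 2, and 4 without pregnant replicate 1). The 1 called over whole libraries became 2 without that filter, 2 with DESeq2 and 0 to 9 with 1 replicate left out (8 and 9 without non-pregnant replicates 1 and 2, 0 without either pregnant replicate). Where 1 replicate is left out, the lone sample is assumed to vary like the other group. The causes were not tested.

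The whole-library log2 fold changes of Lgr5, Lgr6, Rspo1 and Rnf43, none of them called, changed sign under some settings. With 1 replicate left out, Lgr5 ranged from -0.47 to 0.17 (positive without pregnant replicate 2), Lgr6 from -0.39 to 0.050 (positive without non-pregnant replicate 2) and Rnf43 from -0.19 to 0.17. Rspo1 became 0.0035 with equal numbers of nuclei per type. Rnf43, at 0.00, became -0.0046 with RLE normalisation, -0.0017 without the filter, -0.0045 with DESeq2, -0.0046 with a replicate block, -0.14 with equal numbers of nuclei per type, and -0.12 or -0.19 without non-pregnant replicate 1 or pregnant replicate 1.

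Shares of nuclei with a UMI depend on depth. Thinned to 3000 UMIs and as sequenced, they were 45.9% and 70.9% for Lgr4 and 62.4% and 85.4% for Znrf3 in astrocytes, 45.2% and 69.0% for Rnf43 in oligodendrocyte precursors, 11.5% and 39.5% for Rspo1 in the L2/3 IT or L4/5 IT cluster, 20.1% and 55.7% for Rspo2 in L6 IT neurons and 22.2% and 62.1% for Rspo3 in L2/3 IT neurons.

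Replicate numbers did not pair the libraries: the deviations of libraries with the same number correlated at -0.092 to 0.086 by type. With a replicate block the 4 called pairs within types were the same 4. Leaving out the clusters nearly limited to 1 group was chosen after seeing the data. Rspo2 in L5/6 NP neurons gave no value with equal numbers of nuclei per finer cluster, and Apcdd1 gave none under some settings, because they failed the filter. Results from a few UMIs, such as 3 for Rspo2 in the non-pregnant L5/6 NP nuclei, are limited by depth.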
